A study of Homo sapiens with 6 samples.

Results

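HERVL proviruses and MLT2 long terminal repeats (LTRs) were examined in HEK293T cells given an antisense oligonucleotide (ASO) against U7 small nuclear RNA or a control ASO. The members were all loci in the deposited count tables whose repeat name begins with HERVL or MLT2, a rule that uses no measured value, although the family was picked for study with earlier results of these data known. There were 2130 such loci out of 433837 listed in the series, under 18 of 5230 repeat names. Of these names, 6 are internal proviral parts (HERVL-int, HERVL18-int, HERVL32-int, HERVL40-int, HERVL66-int and HERVL74-int) and 12 are LTRs (MLT2A1 to MLT2F).

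HERVL is a family of endogenous retroviruses of the ERVL class, related to the MERVL elements of the mouse. A complete provirus has an internal part with genes derived from gag and pol, flanked by an LTR on each side that holds promoter and polyadenylation signals. MLT2A1 and MLT2A2 are the youngest LTRs of the family and flank HERVL-int, and the MLT2B to MLT2F names are LTRs of older relatives, most of them left in the genome without an internal part. In early human embryos MLT2A1 and HERVL-int are transcribed at genome activation, when the transcription factor DUX4 acts on the LTR. Differentiated cells normally keep most copies silent.

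RNA was sequenced from 3 libraries of cells with the U7 ASO, labelled as a U7 snRNA knockdown, and 3 libraries of cells with the control ASO, which was directed against GFP and labelled wild type. Both ASOs were delivered by lipid transfection at 100 nM into HEK293T, a line derived from human embryonic kidney and transformed with SV40 large T antigen, so every library comes from 1 cell line. The design text describes the libraries of each group as biological replicates. Reads in all listed repeat loci numbered 2089822, 2348997 and 2819540 in the U7 ASO libraries and 2025985, 1926892 and 1980793 in the control libraries. Repeat loci named U7 (16 listed) had 10, 4 and 6 reads with the U7 ASO and 10, 6 and 12 reads with the control ASO, too few to check the knockdown. U7 RNA guides the 3′ end processing of histone transcripts, and the study asks, per its title, about repression of LTR12 elements, the LTRs of the unrelated HERV9 family.

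Reads over HERVL and MLT2 loci made up a slightly larger share of the repeat reads in the U7 ASO libraries. The share was 0.222%, 0.234% and 0.233% in the U7 ASO libraries and 0.155%, 0.166% and 0.215% in the control libraries. The exact (Clopper-Pearson) 95% intervals ran from 0.215% to 0.240% over the U7 ASO libraries and from 0.150% to 0.222% over the control libraries, and cover counting error only. The groups did not overlap, and control replicate 3 lay nearest to the U7 ASO libraries. In bulk RNA a change in the number of cells that transcribe a repeat and a change in its RNA per cell cannot be told apart. The internal parts differed more than the LTRs. Scaled to CPM, the read count relative to the TMM-scaled library size, the 6 internal names together had 770, 851 and 834 CPM in the U7 ASO libraries, against 521, 567 and 653 CPM in the control libraries. The 12 MLT2 names together had 1408, 1407 and 1504 CPM in the U7 ASO libraries, against 1163, 1150 and 1401 CPM in the control libraries. Control replicate 3 came close to the U7 ASO libraries here. These sums are a description and were not tested, because of how the family was picked.

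No single HERVL or MLT2 name passed the test between the U7 ASO and the control ASO. Reads were summed over the loci of each name, and all 2236 names with enough reads were tested together with edgeR's quasi-likelihood test, with a call at a Benjamini-Hochberg adjusted p under 0.05. All 18 member names were tested, with 0 raised and 0 lowered. Over all tested names, 1.52% were raised and 1.03% lowered, 2.55% in either direction. Before adjustment, 7 of the 18 names had a p under 0.05, against 14.6% of all tested names. DESeq2 and limma-voom also called 0 of the 18 names, with the same number at an unadjusted p under 0.05. The median log2 fold change over the 18 names was 0.25, and over all tested names it was −0.01. Values of all 3 U7 ASO libraries lay above those of all 3 control libraries for 3 member names, against 9.93% of all tested names, and below them for 1 member name, against 10.2% of all tested names.

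**Figure D1:**
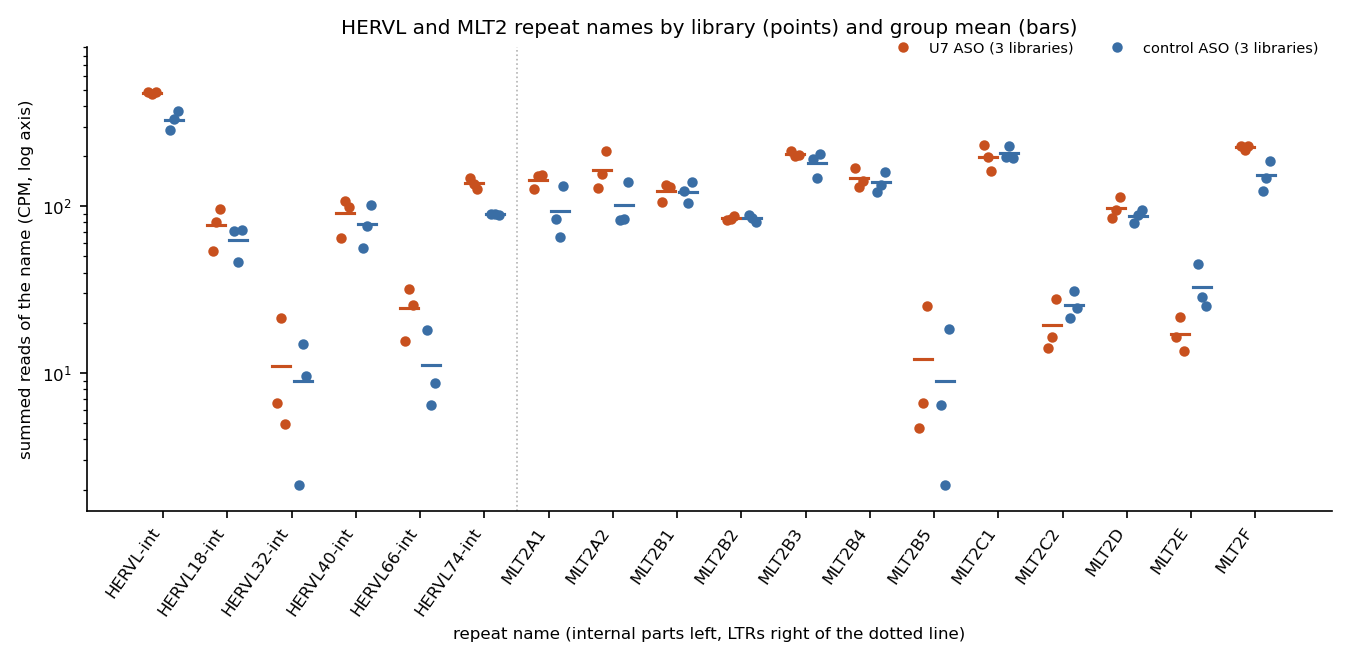
Summed reads of each of the 18 HERVL and MLT2 names in CPM on a log axis, with 1 point per library and a bar at the mean of each group, U7 ASO left of control ASO. The U7 ASO points of HERVL-int, HERVL74-int and MLT2F lie above their control points and those of MLT2E lie below, while the groups overlap for the other names.

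HERVL-int, the internal part of the family's own proviruses, had the largest number of listed loci among the 18 names (326). Its summed reads came to 481, 474 and 481 CPM in the U7 ASO libraries, against 285, 333 and 372 CPM in the control libraries. The U7 ASO libraries lay close together and above every control library. The means were 479 ± 4.43 CPM with the U7 ASO and 330.1 ± 43.8 CPM with the control ASO (SD, n = 3 each), a ratio of 1.45. The log2 fold change was 0.54 (SE 0.19, 95% interval 0.14 to 0.93), and it did not pass after adjustment (adjusted p = 0.182, edgeR). The difference was spread over many copies, since the locus that contributed most, HERVL-int_dup9_65296, carried 16.2% of it. Without the 2 HERVL-int loci that passed on their own, described below, the sums were 446, 455 and 438 CPM with the U7 ASO and again 285, 333 and 372 CPM with the control ASO. A read was found at 122, 141 and 142 HERVL-int loci in the U7 ASO libraries, against 72, 105 and 87 loci in the control libraries. These counts were not corrected for library size, and all listed loci of the series moved the same way. Of those, 118352, 160749 and 157931 had a read in the U7 ASO libraries, against 96631, 120658 and 109027 in the control libraries.

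HERVL74-int, the internal part that pairs with MER74 LTRs, also separated the groups. It had 148, 135 and 128 CPM in the U7 ASO libraries, against 89.4, 90.2 and 88.7 CPM in the control libraries. The log2 fold change of 0.61 (SE 0.23, 95% interval 0.12 to 1.10) did not pass (adjusted p = 0.210, edgeR). A single copy, HERVL74-int_4608658, carried 81.3% of the difference, and the other 44 listed copies together averaged 56.0 CPM with the U7 ASO and 47.1 CPM with the control ASO. Another name, HERVL66-int, the internal part that pairs with LTR66, had the largest fold change of the 18 names but rested on few reads. It held 33, 78 and 72 reads in the U7 ASO libraries and 34, 12 and 18 reads in the control libraries, and the groups overlapped. Its log2 fold change was 1.14 (SE 0.53, 95% interval 0.02 to 2.25, adjusted p = 0.330, edgeR). Here too 1 copy carried most of the difference (70.6%). Without that copy HERVL66-int averaged 12.7 CPM with the U7 ASO and 8.75 CPM with the control ASO. HERVL18-int, HERVL32-int and HERVL40-int overlapped between groups, at log2 fold changes of 0.29, 0.29 and 0.21 with adjusted p-values from 0.746 to 0.915 (edgeR).

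MLT2A1 and MLT2A2, the LTRs of HERVL-int, had fold changes close to that of the internal part. MLT2A1 had 126, 152 and 154 CPM in the U7 ASO libraries, against 83.5, 65.5 and 133 CPM in the control libraries. MLT2A2 had 128, 155 and 215 CPM in the U7 ASO libraries, against 83.0, 84.3 and 139 CPM in the control libraries. In both names control replicate 3 lay above U7 ASO replicate 1, so the groups overlapped. The log2 fold changes were 0.62 for MLT2A1 (SE 0.27, 95% interval 0.05 to 1.18, adjusted p = 0.290, edgeR) and 0.70 for MLT2A2 (SE 0.27, 95% interval 0.13 to 1.27, adjusted p = 0.217, edgeR). No single locus carried much of either difference, with 8.28% in the leading locus of MLT2A1 and 13.5% in that of MLT2A2. Of the 201 listed MLT2A1 loci, 66.7% had a higher mean CPM with the U7 ASO. The share was 63.5% for HERVL-int and 59.0% for MLT2A2, against 58.3% of all listed loci in the series.

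The LTRs of the older relatives were mostly close to even between the groups. MLT2B1, MLT2B2, MLT2B3 and MLT2B4 had log2 fold changes of 0.02, −0.00, 0.18 and 0.08, and their 95% intervals ended between 0.51 and 0.63. MLT2B2 was the most even of them, at 82.7, 84.3 and 86.8 CPM in the U7 ASO libraries and 88.3, 85.3 and 80.5 CPM in the control libraries. MLT2C1 and MLT2D had log2 fold changes of −0.07 (95% interval −0.52 to 0.39) and 0.16 (95% interval −0.37 to 0.70). A single locus, MLT2C1_dup13_4995927, held 77.2% of all MLT2C1 reads. Without this locus the name averaged 38.9 CPM with the U7 ASO and 55.3 CPM with the control ASO, a difference that was not tested. MLT2C2, at −0.40 (95% interval −1.32 to 0.52), and MLT2B5, at 0.44 (95% interval −1.22 to 2.10), had few reads and wide intervals.

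MLT2F and MLT2E were the only MLT2 names whose groups separated, and in each 1 locus carried most of the difference. MLT2F had 230, 216 and 228 CPM in the U7 ASO libraries, against 124, 148 and 188 CPM in the control libraries (log2 fold change 0.55, SE 0.22, adjusted p = 0.238, edgeR). MLT2F_dup68_656977 carried 66.0% of that difference, and without it the name averaged 176 CPM with the U7 ASO and 151 CPM with the control ASO, with overlapping groups. MLT2E was the only member name whose values lay lower in all U7 ASO libraries, at 16.5, 21.8 and 13.5 CPM, against 45.0, 28.4 and 25.1 CPM in the control libraries. Its log2 fold change was −0.93 (SE 0.43, adjusted p = 0.317, edgeR), and MLT2E_dup24_429897 carried 96.5% of the difference.

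**Figure D2:**
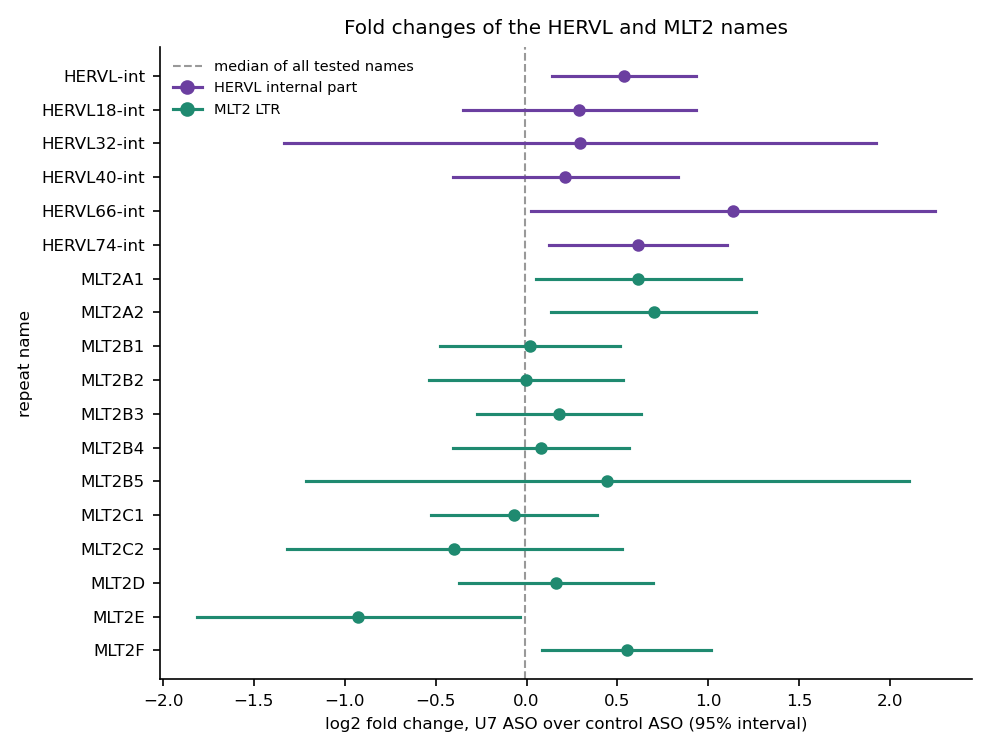
Log2 fold change of each HERVL and MLT2 name (U7 ASO over control ASO, points) with its 95% interval (lines), and the median of all 2236 tested names as a dashed line. The intervals of HERVL-int, HERVL66-int, HERVL74-int, MLT2A1, MLT2A2 and MLT2F lie above 0 before adjustment for multiple tests, that of MLT2E lies below 0, and the others include 0.

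The LTRs that pair with the numbered HERVL internal parts are given beside them without a test of the difference. Of the 12 names of LTR18, LTR32, LTR40, LTR66 and MER74 elements, 0 were raised and 1 was lowered, and their median log2 fold change was −0.17. The lowered name was LTR40A1 (log2 fold change −1.55, SE 0.24, adjusted p = 0.000375, edgeR). LTR40a, LTR40b and LTR40c stood at 0.16, 0.20 and 0.23, and HERVL40-int stood at 0.21. MER74A, MER74B and MER74C stood at −0.32, −0.20 and −0.13, and HERVL74-int stood at 0.61, most of it from the 1 copy named above (0.25, the log2 ratio of mean CPM, without that copy). Among the 4 internal parts of other ERVL elements, 0 names were called, with ERVL-E-int at 0.42 (adjusted p = 0.309, edgeR) and ERVL-int at −0.57 (adjusted p = 0.300, edgeR). LTR12C, the element of the study's title, had a 95% interval of 3.13 to 3.88 on the log2 scale, and the intervals of all 18 HERVL and MLT2 names ended below it, the highest at 2.25 for HERVL66-int. The difference between these names and LTR12C was not tested directly.

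Single copies were covered by few reads. The median member locus had 6 reads over the 6 libraries, 949 loci had 4 reads or fewer, and 53 of the 2130 loci (2.49%) passed the filter on low counts, against 3.31% of all listed loci. The other 2077 loci held 66.2% of the members' reads and could not be tested one by one. Their sum came to 1385, 1549 and 1632 CPM in the U7 ASO libraries, against 1061, 1102 and 1326 CPM in the control libraries, again without overlap. Untested loci of the whole series also held on average a larger share of the reads with the U7 ASO. Tested loci held 1566924, 1607615 and 1952138 of all repeat reads in the U7 ASO libraries and 1605822, 1474688 and 1447558 in the control libraries (totals above). Whether the rise at untested members differs from that of the whole series was not tested. A read was found at 581, 721 and 772 member loci in the U7 ASO libraries and at 431, 539 and 506 in the control libraries. Thinned to the smallest library, the expected numbers were 576, 706 and 738 loci with the U7 ASO, against 429, 539 and 505 with the control ASO. The count of covered loci moved the same way over the whole series, at 117099, 156595 and 149815 thinned loci in the U7 ASO libraries, against 95976, 120658 and 108734 in the control libraries.

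Of the 53 tested member loci, 4 were raised and 0 were lowered in the fit over all 14380 tested loci. The background was 4.49% raised and 0.473% lowered over all tested loci, 4.96% in either direction. A locus without control reads entered the test only if the U7 ASO libraries held enough reads, so the 4 raised loci are described one by one and not as a share of the family. The number raised was 5 with DESeq2 and 2 with limma-voom. Leaving out control replicate 2 or 3, or U7 ASO replicate 1 or 3, also gave 2. Values of all U7 ASO libraries lay above those of all control libraries at 8 of the 53 member loci (15.1%) and below at 4 (7.55%). Over all tested loci these shares were 12.2% above and 8.36% below.

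**Figure D3:**
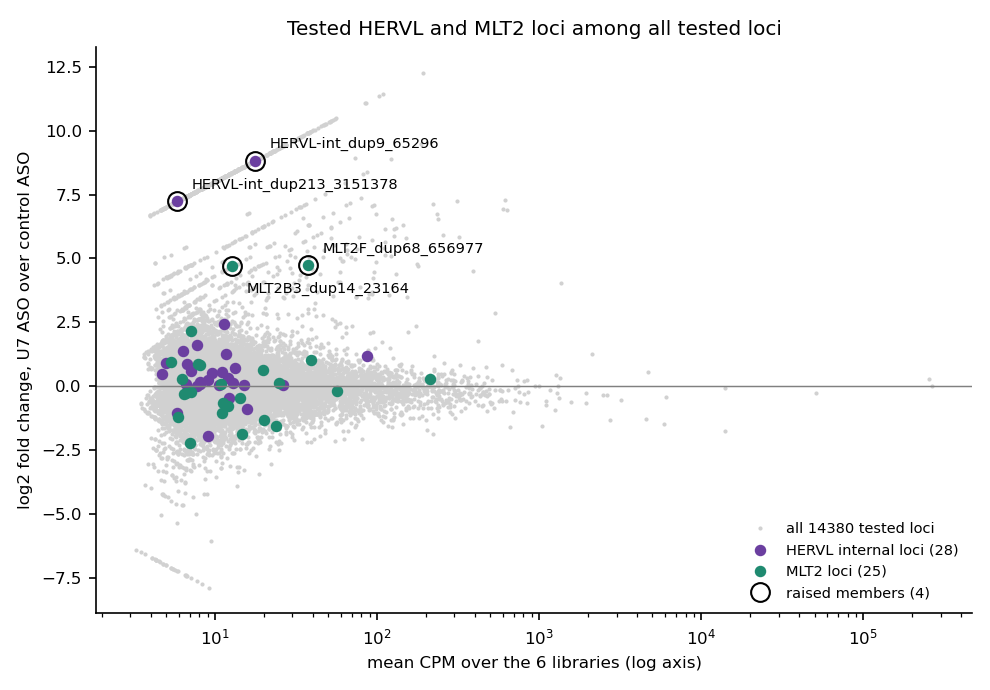
Log2 fold change (U7 ASO over control ASO) against mean CPM over the 6 libraries on a log axis for every tested locus, with HERVL internal loci in purple, MLT2 loci in green and the 4 raised members ringed. The other 49 tested members lie between −2.22 and 2.43 on the log2 scale.

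The MLT2F copy MLT2F_dup68_656977 had the smallest p of the family. It held 102, 133 and 127 reads in the U7 ASO libraries and 2, 6 and 4 reads in the control libraries. The log2 fold change was 4.75 (SE 0.52, 95% interval 3.62 to 5.87, adjusted p = 5.86e-05, edgeR), and the call held in all 14 alternatives run for it. Identifiers end in a running number, and loci with close numbers are taken here as neighbours in the authors' annotation, at an unknown distance in bases. Within 20 steps of this copy the tables list 9 other repeat loci, all on 1 side of it, with 42, 24 and 25 reads in the U7 ASO libraries and 0 reads in each control library.

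The HERVL-int copy HERVL-int_dup9_65296 held 49, 30 and 104 reads in the U7 ASO libraries and 0 reads in every control library. Set against 3 reads over the control group, it was 55.9-fold higher with the U7 ASO, a ratio that leaves out the spread between libraries. Its adjusted p was 0.000549 (edgeR), and the call held in all 14 alternatives. It lies in a row of 4 members, in the order MLT2A2, HERVL-int, HERVL-int, HERVL-int, which is an LTR followed by pieces of an internal part. The whole row held 79, 44 and 198 reads in the U7 ASO libraries and 0 reads in each control library. At 19 steps from it the L1M4 copy L1M4_dup113_65277, a fragment of an old long interspersed element, was raised too, with 142, 48 and 145 reads in the U7 ASO libraries and 0, 2 and 0 reads in the control libraries.

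The MLT2B3 copy MLT2B3_dup14_23164 held 28, 40 and 58 reads in the U7 ASO libraries and 4, 0 and 0 reads in the control libraries. Its log2 fold change was 4.71 (SE 1.05, adjusted p = 0.0144, edgeR). All control reads came from control replicate 1, and without that library the fitted log2 fold change was 8.33, a value that depends on the prior count. The call was lost with limma-voom and without control replicate 2, control replicate 3 or any U7 ASO replicate, with adjusted p-values up to 0.202. The 22 other repeat loci within 20 steps held 376, 244 and 318 reads in the U7 ASO libraries, against 62, 56 and 54 reads in the control libraries. Of these 22 loci, 16 had reads in the U7 ASO group only, while 45.7% of all listed loci in the series had no read in any control library. A simple repeat 4 steps away was raised with a log2 fold change of 5.67 (adjusted p = 0.00499, edgeR), at 68, 18 and 44 reads in the U7 ASO libraries and 2, 0 and 0 reads in the control libraries. The DNA transposon copy MER1B_dup13_23157, 7 steps away, was raised with one of 1.91 (adjusted p = 0.00606, edgeR).

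The second HERVL-int copy, HERVL-int_dup213_3151378, held 26, 14 and 18 reads in the U7 ASO libraries and 0 reads in every control library. Set against 3 reads over the control group, it was 17.7-fold higher with the U7 ASO. This ratio leaves out the spread between libraries and is not a lower bound. The interval of the fitted log2 fold change was wide, from 3.23 to 11.2. The copy was called raised at an adjusted p of 0.0421 (edgeR). This call was the least firm of the 4 and was lost in 10 of 14 alternatives, among them the omission of any 1 library, with adjusted p-values up to 0.337. An MLT2A1 locus, 3 steps away, held 0, 1 and 1 reads in the U7 ASO libraries and 0 reads in the control libraries.

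In the surroundings of the 4 raised copies, reads in other repeats also separated the groups at 3, and did so at 5 of the 49 other tested member loci. A raised LTR12 or HERV9 locus lay within 20 steps of 0 of the 53 tested members and of 1.24% of tested loci outside LTR12 and HERV9. At so low a share, 53 loci are too few for this count to show a difference. The nearest raised LTR12 or HERV9 copies were 322 to 4972 steps from the 4 raised loci. Reads from longer transcripts that cross these repeats and reads that begin in them are not separated by the counts, and the part of the surrounding transcription in these 4 results was not tested.

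**Figure D4:**
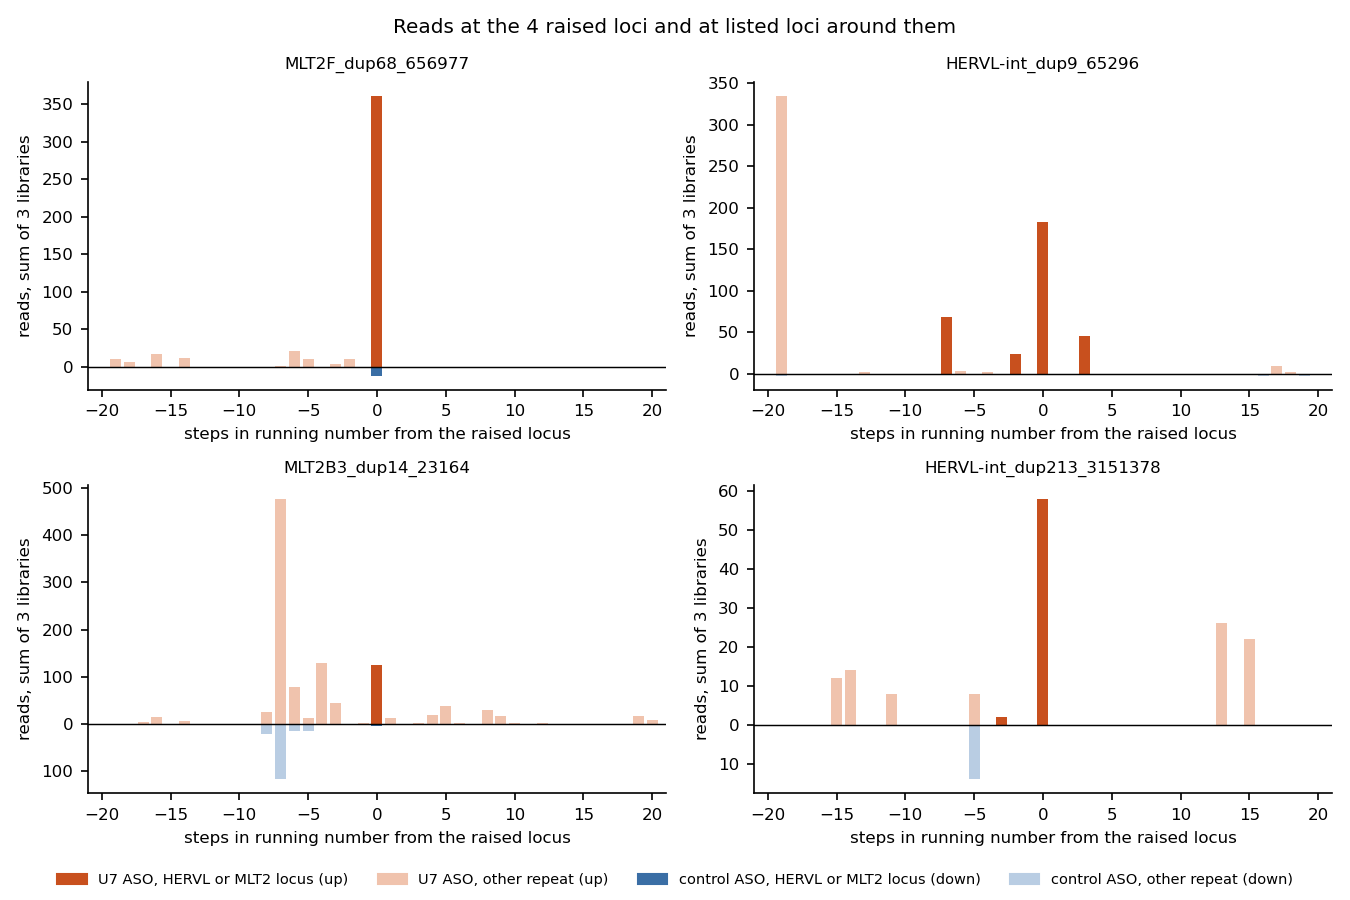
Reads summed over the 3 libraries of each group at the 4 raised loci (step 0) and at the listed loci within 20 steps in running number, with U7 ASO drawn upward and control ASO downward and HERVL or MLT2 loci in full colour. Control reads are absent or few at the raised loci, and other repeats nearby carry U7 ASO reads in all 4 windows.

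The 10 member loci with the most reads held 19.3% of the family's reads, and 1 of them, MLT2F_dup68_656977, passed the test. MLT2C1_dup13_4995927 led with 401, 400 and 348 reads in the U7 ASO libraries and 224, 334 and 325 reads in the control libraries (log2 fold change 0.26, 95% interval −0.34 to 0.87, adjusted p = 0.879, edgeR). HERVL74-int_4608658 followed with 125, 231 and 251 reads in the U7 ASO libraries and 101, 81 and 61 reads in the control libraries. Its groups did not overlap. The log2 fold change was 1.18 with SE 0.36 (adjusted p = 0.0915, edgeR), and of the 14 alternatives only DESeq2 called it (adjusted p = 0.0262). The MLT2F copies MLT2F_dup2_1223485 and MLT2F_dup1_1223484 have consecutive running numbers. The first held 143, 80 and 35 reads in the U7 ASO libraries and 102, 65 and 113 reads in the control libraries, a wide spread in the U7 ASO group (log2 fold change −0.19, 95% interval −1.22 to 0.84). The second had a log2 fold change of 0.13, and its groups overlapped as well. The MLT2F copy MLT2F_dup31_4859825 also varied within both groups, with 81, 45 and 142 reads in the U7 ASO libraries and 3, 39 and 79 reads in the control libraries.

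Among the same 10 loci, 2 had lower values in all U7 ASO libraries without passing the test. MLT2B4_dup81_4778721 held 30, 20 and 8 reads in the U7 ASO libraries and 55, 35 and 75 reads in the control libraries (log2 fold change −1.58, SE 0.58, adjusted p = 0.208, edgeR). MLT2E_dup24_429897 held 24, 4 and 30 reads in the U7 ASO libraries and 64, 30 and 38 reads in the control libraries (log2 fold change −1.32, adjusted p = 0.467, edgeR). The MLT2A2 copy MLT2A2_dup52_4778701, 20 steps from that MLT2B4 copy, had a log2 fold change of 0.63, and HERVL74-int_dup9_1858190 had one of 0.06 (adjusted p = 0.840 and 0.990, edgeR).

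The proviral structure of the family was visible in the running numbers. A listed MLT2A1 or MLT2A2 locus lay within 10 steps of 104 of the 326 HERVL-int loci (31.9%), against 0.369% of all listed loci. At the numbered HERVL internal parts, 0 loci had one so close. A HERVL-int locus lay within 10 steps of 29.9% of MLT2A1 loci, 10.2% of MLT2A2 loci, 0.901% of MLT2B3 loci (2 loci) and 6.67% of MLT2B5 loci (1 of 15), against 0.191% of all listed loci. It was so close to 0 loci of the other MLT2 names. Linking members within 10 steps gave 68 blocks that hold both HERVL-int and MLT2A loci, and in 12 of them HERVL-int was flanked by MLT2A on both sides.

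These 68 provirus-like blocks together had 441, 481 and 540 CPM in the U7 ASO libraries, against 223, 250 and 371 CPM in the control libraries. Block CPM are relative to the scaled reads of the tested loci, whereas the sums by name above are relative to those of the tested names. Without the block around HERVL-int_dup9_65296, which had 0 control reads, the sums were 391, 454 and 431 CPM with the U7 ASO. The groups did not overlap on this scale, but on the scale of the names U7 ASO replicate 3 lies below control replicate 3. The comparisons of blocks below were made on the scale of the loci only. Of the 42 blocks with at least 20 reads, 33 (78.6%) had a higher mean with the U7 ASO and 9 a lower one, while 58.3% of all listed loci had a higher mean with the U7 ASO. The U7 ASO libraries lay above all control libraries in 8 of these blocks and below in 0, beside 12.2% above and 8.36% below for single tested loci. Blocks pool several loci and meet another read minimum, so these shares are not on the same footing. Blocks were defined after the identifiers were seen and were not tested.

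Blocks with MLT2A loci on both sides of HERVL-int, the layout of a provirus, separated the groups in 2 of 12, with the U7 ASO libraries above, and in 0 with them below. These were the block at MLT2A1_dup11_4669913, with 17, 12 and 14 reads in the U7 ASO libraries and 6, 0 and 6 reads in the control libraries, and the block at MLT2A1_dup2_4783803, with 10, 3 and 6 reads in the U7 ASO libraries and 0 reads in each control library. The examples that follow are among the other 10. The block that begins at MLT2A2_dup279_1453792, in the order MLT2A2, 4 HERVL-int pieces, MLT2A2, had 34, 40 and 38 reads in the U7 ASO libraries and 16, 41 and 28 reads in the control libraries. The block at MLT2A1_dup30_5308575 had 25, 38 and 40 reads in the U7 ASO libraries and 12, 16 and 33 reads in the control libraries. The block at MLT2A1_dup22_1553615 had a lower mean with the U7 ASO, with 4, 32 and 2 reads in the U7 ASO libraries and 16, 32 and 67 reads in the control libraries. The groups overlapped in each of these 3 blocks. A block with 1 HERVL-int piece between MLT2A2 loci, at MLT2A2_dup86_4600471, had 50, 2 and 34 reads in the U7 ASO libraries and 4, 0 and 0 reads in the control libraries, so U7 ASO replicate 2 lay among the control values. Its HERVL-int locus did not pass the filter on low counts, and it was called raised without that filter (adjusted p = 0.0166, edgeR) and without U7 ASO replicate 2 (adjusted p = 0.0350, edgeR).

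**Figure D5:**
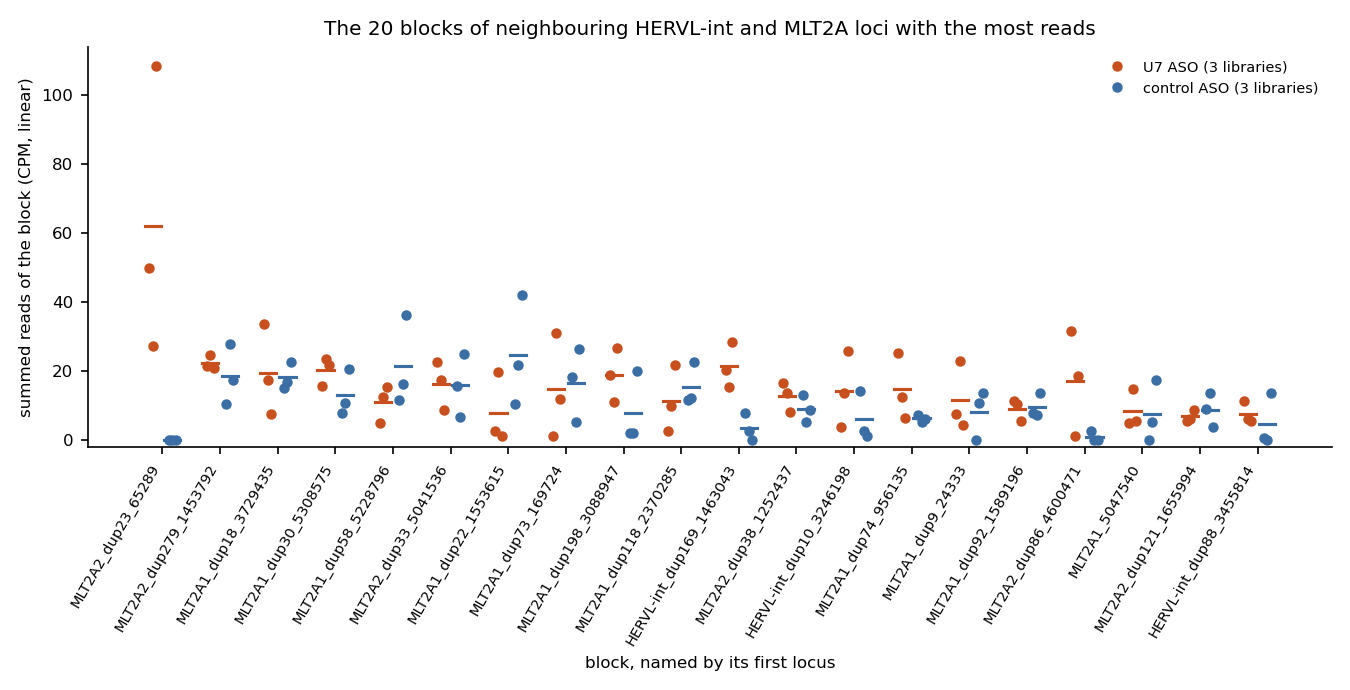
Summed reads in CPM (linear axis) of the 20 blocks of neighbouring HERVL-int and MLT2A loci with the most reads, with 1 point per library and a bar at each group mean, U7 ASO left of control ASO. The block at MLT2A2_dup23_65289 has 27.2 to 108 CPM with the U7 ASO and 0 CPM with the control ASO, and most other blocks overlap between the groups.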

How the data were processed

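Read counts were deposited as 1 table for each library, with 1 row per repeat locus and no coordinates or lengths. Per the submitters' processing notes, FastQC 0.11.5, STAR 2.5.3a, featureCounts 1.5.0-p1 (Subread) and GRCh38 were used. Not given in the sources used here are the repeat annotation, the strand setting and the handling of reads that map to several places, so reads of similar copies may be split or dropped, and a count at 1 copy of a young family is uncertain.

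Groups came from the sample titles. Counts were tested per locus and summed per repeat name with edgeR 4.0.16 under R 4.3.3 (quasi-likelihood, two-sided, TMM scaling, filterByExpr with minimum count 10 and total 15, Benjamini-Hochberg over all features tested). CPM values are TMM-scaled, on the tested names for sums by name, kind or untested loci and on the tested loci for single tested loci and blocks. Each SE was derived from the F statistic and its fold change. DESeq2 1.42.0 and limma 3.58.1 served as alternatives. The code was tested on simulated counts. Named were all 18 member names, every changed locus up to 10 in each direction by size, the 10 loci with the most reads, and loci in blocks with these. HERVL-int_dup18_4600472 and the blocks described were chosen after their values were seen. The members and lists were chosen with earlier results of these data known. P-values set the difference between groups against the spread between these libraries, with variance estimates that also draw on the other features tested.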

Additional observations from a re-analysis of the deposited data

How the results depend on the processing

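Of the 18 HERVL and MLT2 names, 0 were raised and 0 lowered under 13 of 14 alternatives. The fit with the replicate block raised 2, HERVL-int (log2 fold change 0.54, adjusted p = 0.0467, edgeR) and MLT2A2 (0.71, adjusted p = 0.0440, edgeR). The replicate numbers do not pair the libraries by the labels, and the correlations of same-numbered libraries were 0.11, −0.03 and 0.12 for names and 0.06, −0.03 and 0.04 for loci. Not every library correlated best with its own number. Raised loci numbered 4, with 5 under DESeq2, 2 under limma-voom, 3 with upper-quartile scaling, 3 with the replicate block and 2 to 3 when 1 library was left out. Without a filter they numbered 4, with HERVL-int_dup18_4600472 in place of HERVL-int_dup213_3151378. Lowered loci numbered 0 throughout. With upper-quartile scaling the median of all tested loci was −0.09, against 0.06 under TMM.

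Fold changes changed sign only in results that had not passed. That of MLT2B2 was 0.0058 with DESeq2-type size factors, 0.056 with library totals, 0.013 without a filter, 0.0061 with DESeq2, 0.0012 with limma-voom and from −0.033 to 0.043 with 1 library left out. With 1 library left out, fold changes ranged from −0.62 to 0.90 for HERVL32-int, −0.072 to 0.13 for MLT2B1, −0.020 to 0.20 for MLT2B4, −0.65 to 1.51 for MLT2B5 and −0.19 to 0.067 for MLT2C1. They ranged from −0.81 to 0.25 for MLT2F_dup2_1223485, −0.31 to 0.36 for MLT2F_dup1_1223484 and −0.75 to 0.45 for HERVL74-int_dup9_1858190. With upper-quartile scaling MLT2F_dup1_1223484 had −0.017 and HERVL74-int_dup9_1858190 had −0.094. The HERVL74-int copy had −0.22 with limma-voom and −0.17 with the replicate block. The cause was not tested. Few reads per locus limit what can be tested at single copies.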
